A study of Mus musculus with 28 samples.

Results

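The 4 Hox clusters of the mouse were examined as H3K27me3 domains in microglia. The members were the called H3K27me3 regions that overlap a window around each cluster, and the 38 listed Hox genes that lie in those windows: 10 Hoxa, 10 Hoxb, 9 Hoxc and 9 Hoxd genes. The windows met 4 regions of the 26326 in the deposited count table, 1 for each cluster. Another 70 called regions lay within 500 kb of a window and served as the local background.

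Hox genes encode homeodomain transcription factors that set position along the body axis of the embryo. Within a cluster, their order on the chromosome follows the order in which they are used along that axis. H3K27me3, trimethylation of lysine 27 of histone H3, is laid down by Polycomb repressive complex 2 and is read by Polycomb repressive complex 1. In cells that do not use the Hox genes, the mark is known to cover whole clusters as broad domains. Microglia are the resident macrophages of the brain.

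All groups were microglia sorted from brains of adult male wild-type C57BL/6 mice. Mice on a regular diet gave the basal microglia, which are labelled by low CD44, CD45 and CD11b. The other 3 groups came from mice fed 0.2% cuprizone, a toxin that causes loss of oligodendrocytes and of myelin, for 4 weeks. They were sorted by CD229, the receptor encoded by Ly9, and CD11c, the integrin encoded by Itgax, into CD229-CD11c-, CD229+CD11c- and CD229+CD11c+ microglia. Brains of 2 to 6 mice of a condition were pooled for sorting. The labels do not tie replicates to separate pools of mice, and p-values therefore reflect the spread among these libraries, which may be technical. Tag counts per region covered 12 H3K27me3 libraries, 3 per group, the basal ones being replicates 3, 4 and 5. The series also holds 14 input libraries and the 2 basal libraries on which the regions were called.

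The 12 libraries held 7740002 to 11362168 tags in the regions, and a single Hox region held 9651 to 34527. In each group, 2 libraries carry the tag PE150 in their titles and 1 does not (replicate 3), and all 12 are labelled with a read length of 150. The groups were balanced for this tag, and values within it are given beside the pooled ones. No called region overlapped any of 15 microglial marker genes, such as P2ry12, Tmem119 and Cx3cr1. Called regions overlapped 7 of 7 neuronal, 4 of 5 astrocyte, 4 of 6 oligodendrocyte lineage, 2 of 4 endothelial and 2 of 6 monocyte and macrophage markers. The regions were called on basal replicates 1 and 2, so this overlap cannot check the cell type of the 12 libraries compared here. The assay measures a repressive mark in a bulk of sorted cells. More marked cells and more mark per cell cannot be told apart, and a change of the mark over the whole genome cannot be seen, because levels are relative to the tags in the regions.

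The Hoxa region spanned chr6:52144553-52300629 (mm10), 156.1 kb, and held Hoxa2, Hoxa3, Hoxa4, Hoxa5, Hoxa6, Hoxa7, Hoxa9, Hoxa10, Hoxa11 and Hoxa13, which lie over 98.5 kb of it. The deposited table places its centre at an annotated transcript end and assigns it to Hoxa7. The Hoxb region spanned chr11:96119340-96391099, 271.8 kb, and held Hoxb1 to Hoxb9 and, far from the others, Hoxb13, over 173.9 kb. Its centre lies in an intron of the noncoding gene Gm53.

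The Hoxc region was the longest of all called regions. It spanned chr15:102741093-103151419, 410.3 kb, and held Hoxc4, Hoxc5, Hoxc6, Hoxc8, Hoxc9, Hoxc10, Hoxc11, Hoxc12 and Hoxc13 in 115.7 kb, or 28.2% of its length. Called signal ran on for 180.0 kb before the first of these genes and 114.6 kb after the last. Its centre lies in an intron of Hotair, the long noncoding RNA gene between Hoxc11 and Hoxc12.

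The Hoxd region spanned chr2:74627265-74825486, 198.2 kb, and held Hoxd1, Hoxd3, Hoxd4, Hoxd8, Hoxd9, Hoxd10, Hoxd11, Hoxd12 and Hoxd13 in 96.9 kb, with the homeobox gene Evx2 beside Hoxd13. Its centre lies at the end of Mir10b. In the other clusters the listed genes took 63.1% (Hoxa) and 64.0% (Hoxb) of the region, and 48.9% in Hoxd. All 38 genes lay wholly inside their region. Because the table gives 1 count per region, the genes of a cluster share 1 value and could not be told apart.

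The regions also cover 6 microRNA genes of the miR-10, miR-196 and miR-615 families, shown here with their seeds (bases 2 to 8, in capitals), because those of miR-10 and miR-196 recur between clusters. Mir196b lies in the Hoxa region, Mir196a-1 and Mir10a in Hoxb, Mir196a-2 and Mir615 in Hoxc, and Mir10b in Hoxd. The miR-196 family is known to target Hox messenger RNAs. The mature sequences, from RefSeq (GRCm38.p6, the assembly of mm10), share 1 seed in the miR-196 family, from 3 genes in 3 clusters, and another in the miR-10 family, from 2 genes in 2 clusters. Mir196a-1 and Mir196a-2 give the same mature 5p sequence.
mmu-miR-196b-5p: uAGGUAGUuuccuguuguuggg
mmu-miR-196a-5p: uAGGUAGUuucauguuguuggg
mmu-miR-10a-5p: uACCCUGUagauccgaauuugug
mmu-miR-10b-5p: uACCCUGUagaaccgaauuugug
mmu-miR-615-3p: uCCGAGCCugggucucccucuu

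Polycomb repressive complexes are known to be drawn to DNA that is rich in CG dinucleotides. The 250 bases before the start site were in the RefSeq table for 22 of the 38 Hox genes, as 24 promoters, since Hoxa10 and Hoxd11 have 2 each. They held a median of 12.5 CG dinucleotides, against 6 over all 32851 promoters of the table, and a median of 58.6% G and C, against 52.4%. The dinucleotide CG reads the same on both strands, and at least 10 of them stood in 15 of the 24 Hox promoters and in 37.8% of all. The richest Hox promoter of each cluster among those in the table is shown with every CG in capitals, and a promoter of Hoxd11 as the poorest. For Hoxc the table holds only that of Hoxc4.
Hoxa13 promoter, chr6:52260881-52261130, - strand: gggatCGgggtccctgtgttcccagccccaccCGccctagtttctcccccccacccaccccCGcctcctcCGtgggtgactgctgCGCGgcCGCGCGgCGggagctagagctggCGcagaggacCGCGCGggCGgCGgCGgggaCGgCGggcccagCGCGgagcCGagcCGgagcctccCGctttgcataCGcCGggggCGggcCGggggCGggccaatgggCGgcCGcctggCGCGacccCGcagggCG
Hoxb4 promoter, chr11:96318017-96318266, + strand: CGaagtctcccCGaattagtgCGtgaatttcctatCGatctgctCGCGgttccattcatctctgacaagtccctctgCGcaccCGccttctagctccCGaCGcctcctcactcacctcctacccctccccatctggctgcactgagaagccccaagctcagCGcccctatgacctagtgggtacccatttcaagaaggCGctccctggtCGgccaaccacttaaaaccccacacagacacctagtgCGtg
Hoxc4 promoter, chr15:103034145-103034394, + strand: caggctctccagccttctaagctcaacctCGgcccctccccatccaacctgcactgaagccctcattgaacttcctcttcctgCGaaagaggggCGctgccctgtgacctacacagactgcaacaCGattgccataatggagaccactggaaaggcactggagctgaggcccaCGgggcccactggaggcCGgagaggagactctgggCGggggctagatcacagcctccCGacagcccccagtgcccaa
Hoxd13 promoter, chr2:74667975-74668224, + strand: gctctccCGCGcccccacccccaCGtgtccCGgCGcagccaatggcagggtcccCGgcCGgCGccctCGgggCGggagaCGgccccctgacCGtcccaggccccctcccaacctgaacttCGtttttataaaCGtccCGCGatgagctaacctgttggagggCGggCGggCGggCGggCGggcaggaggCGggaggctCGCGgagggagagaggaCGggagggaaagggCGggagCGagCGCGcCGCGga
Hoxd11 promoter, chr2:74679308-74679557, + strand: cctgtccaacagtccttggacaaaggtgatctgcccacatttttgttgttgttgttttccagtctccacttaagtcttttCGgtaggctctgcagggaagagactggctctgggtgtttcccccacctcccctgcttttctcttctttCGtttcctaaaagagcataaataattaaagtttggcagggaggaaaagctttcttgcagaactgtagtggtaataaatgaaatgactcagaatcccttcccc

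The promoter of Hoxa13 held 35 CG dinucleotides, a number that 3.0% of all promoters reached, and that of Hoxd13 held 31 (5.2%). Both are the last genes of their clusters and act in the limbs and the hind end of the embryo. The promoters of Hoxb4 and Hoxc4 held 14 and 8, within the range of common promoters (29.4% and 43.0% of all held as many). The Hoxd11 promoter shown held 2, and its other promoter held 20. The called domains cover all of these promoters.

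In basal microglia the Hox domains ranked high in both enrichment and breadth. By the authors' deposited table, made from basal replicates 1 and 2, the log2 enrichment over input was 2.93 for Hoxa, 2.62 for Hoxb, 2.37 for Hoxc and 2.48 for Hoxd, against a median of 1.49 over 26325 regions. Their ranks in enrichment were 211, 573, 1182 and 863. By length they ranked 24, 3, 1 and 7, with a median region of 6386 bp. Short regions filled the top of the enrichment order: among the 100 regions of at least 100 kb, Hoxa ranked 1, Hoxb 3, Hoxd 5 and Hoxc 11.

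The basal libraries not used for calling, replicates 3 to 5, gave an order of the same kind by density. Tag densities (CPM per kb, counts scaled to a common library total and divided by region length, here without further scaling) came to 8.86 for Hoxa, 6.25 for Hoxb, 6.12 for Hoxd and 5.75 for Hoxc, with a median of 3.12 over all regions and 4.59 over those of at least 100 kb. Hoxa ranked 9 of all regions in density, and Hoxb, Hoxd and Hoxc ranked 162, 190 and 311. The domains ended close to other called regions. The gap to the next one was 2.0 kb and 3.1 kb around Hoxb and 2.4 kb before Hoxc, and 2.7 kb separated Hoxa from the region over Evx1, a homeobox gene at the end of the cluster. On the Mtx2 side of Hoxd the gap was 68.9 kb.

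**Figure D1:**
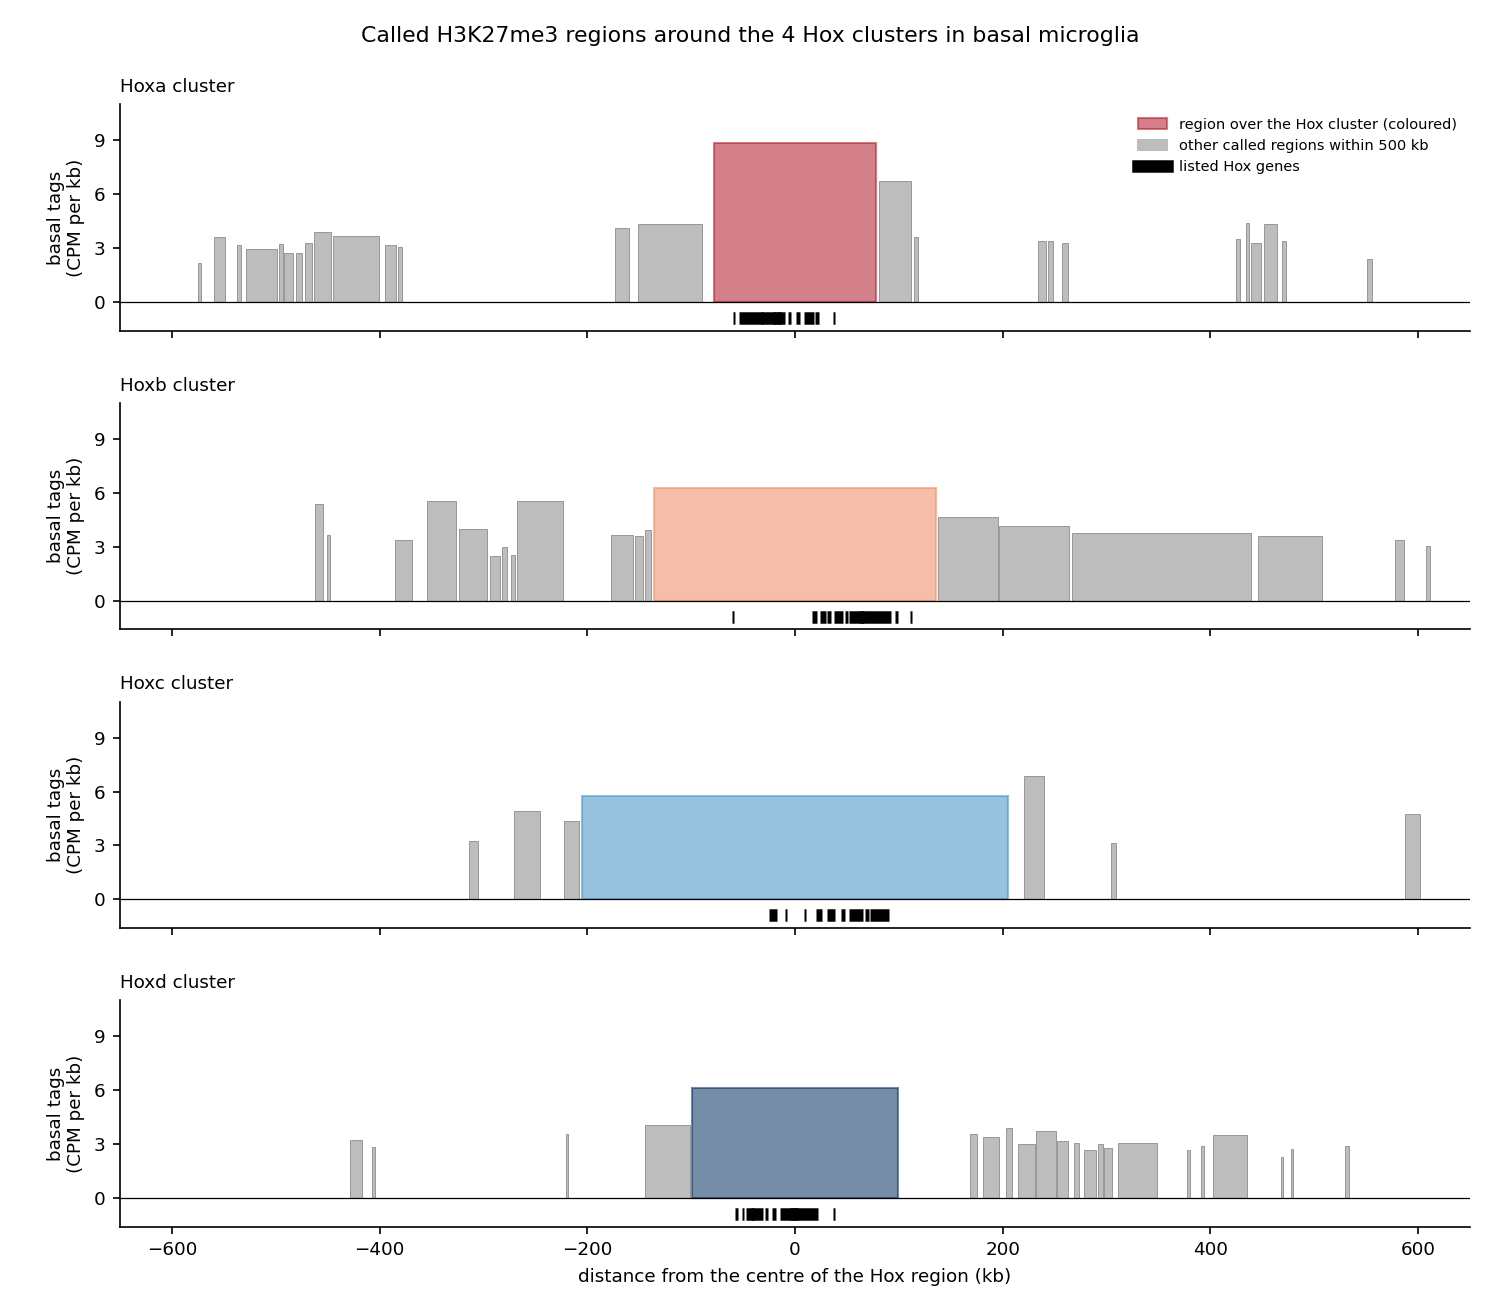
Called H3K27me3 regions by distance in kb from the centre of each Hox region, with bar height giving the tag density in basal replicates 3 to 5 (CPM per kb, without further scaling), the Hox region in colour, other called regions in grey and the listed Hox genes as black blocks. The Hoxa domain stands at 8.86 and the other 3 between 5.75 and 6.25, the Hoxc domain is 410.3 kb wide, and a grey region as dense as 6.84 lies just beyond it.

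The mark over the Hox domains was lowest in basal and CD229-CD11c- microglia, highest in CD229+CD11c- and in between in CD229+CD11c+. Densities are now CPM per kb after scaling between libraries by the trimmed mean of M-values (TMM). The Hoxa region had 9.78, 7.79 and 7.97 in the 3 basal libraries and 8.60, 8.21 and 10.2 in CD229-CD11c-, against 12.8, 13.2 and 15.0 in CD229+CD11c- and 10.4, 10.5 and 11.5 in CD229+CD11c+. All CD229+CD11c- libraries lay above all others, and the last value of each subset and the first basal value, the untagged libraries, were the highest of their group. Group means ± SD (n = 3) were 8.52 ± 1.10 in basal, 13.7 ± 1.17 for CD229+CD11c- and 10.8 ± 0.587 for CD229+CD11c+.

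The Hoxb region had 6.61, 5.48 and 5.92 in basal and 6.74, 6.23 and 6.52 in CD229-CD11c- libraries, with 8.72, 8.77 and 8.62 in CD229+CD11c- and 7.80, 7.68 and 7.50 in CD229+CD11c+ libraries. Basal and CD229-CD11c- values overlapped, and the other groups stood apart from both and from each other. Here the untagged library was the highest only in basal microglia, and the CD229+CD11c- libraries were close together (8.71 ± 0.0756).

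The Hoxc region had 5.96, 5.19 and 5.42 in basal and 6.04, 5.78 and 5.80 in CD229-CD11c- libraries, with 8.12, 8.17 and 8.07 in CD229+CD11c- and 7.11, 7.01 and 6.79 in CD229+CD11c+ libraries. The Hoxd region had 6.48, 5.47 and 5.71 in basal and 6.51, 6.14 and 6.16 in CD229-CD11c- libraries, with 8.47, 8.63 and 8.48 in CD229+CD11c- and 7.40, 7.49 and 7.02 in CD229+CD11c+ libraries. In both clusters the groups fell in the same order as in Hoxb, with the same overlap of basal and CD229-CD11c- values. The basal mean was 5.52 ± 0.399 for Hoxc and 5.88 ± 0.527 for Hoxd, and the CD229+CD11c- mean of Hoxd was 8.53 ± 0.0879.

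**Figure D2:**
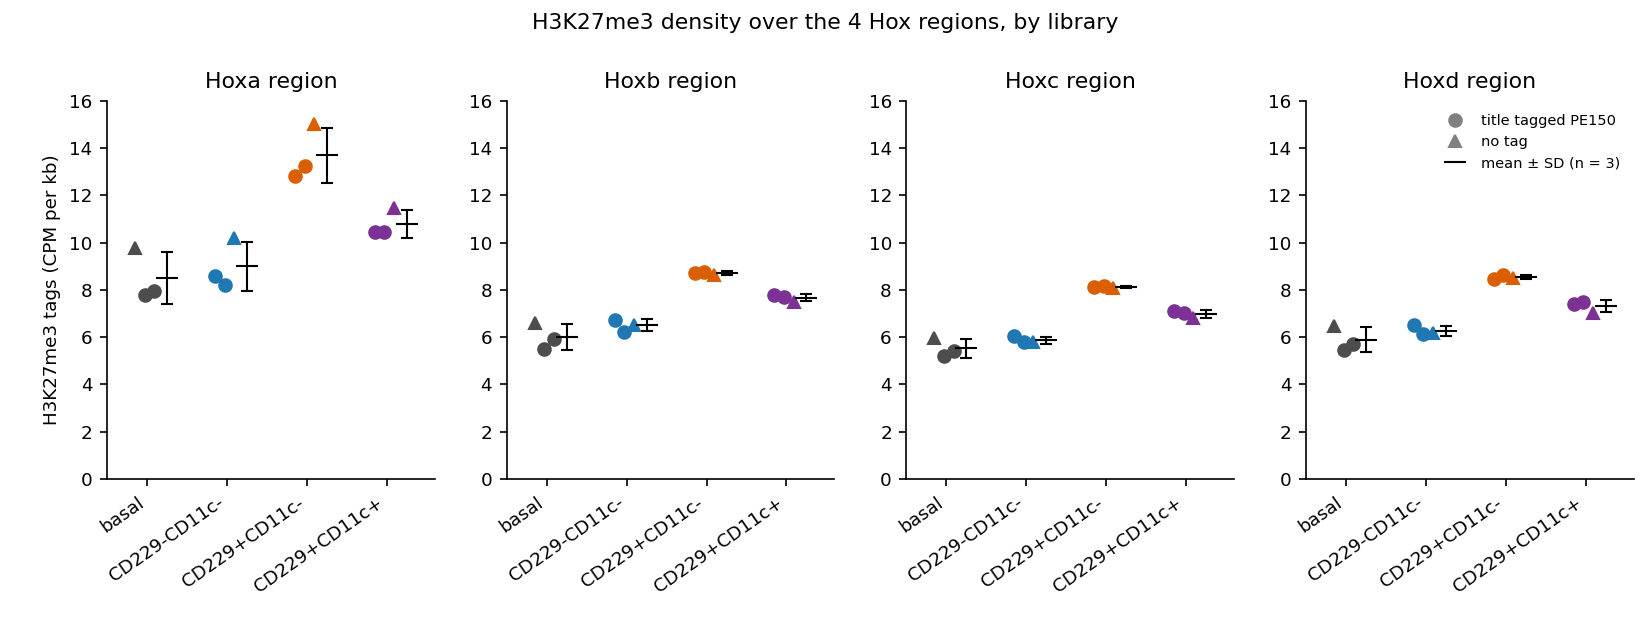
H3K27me3 density (CPM per kb, TMM scaled) of each Hox region in each of the 12 libraries, with circles for libraries tagged PE150 in their titles, triangles for the others, and the mean ± SD of the 3 libraries beside them. In each panel the CD229+CD11c- libraries are the highest, up to 15.0 in Hoxa, and the CD229+CD11c+ libraries lie between them and the 2 low groups.

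Between CD229+CD11c- and basal microglia, all 4 Hox regions rose. The log2 fold changes ± SE were 0.69 ± 0.09 for Hoxa, 0.54 ± 0.07 for Hoxb, 0.56 ± 0.06 for Hoxc and 0.54 ± 0.07 for Hoxd, or rises of 60.8%, 45.0%, 47.0% and 45.0%. Adjusted p-values over all regions (edgeR's quasi-likelihood test, Benjamini-Hochberg) were 2.6e-05, 7.1e-06, 2.2e-06 and 6.8e-06. Of all regions 9.52% rose and 3.47% fell by this rule, and the groups did not overlap in 31% of them. All 4 Hox regions were among those that rose, and their groups did not overlap. Within the tagged libraries the changes were 0.72, 0.62, 0.62 and 0.61, and between the untagged libraries, 1 per group, they were 0.62, 0.38, 0.44 and 0.39. The authors' deposited table gives 0.69, 0.54, 0.56 and 0.54 for the same regions.

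The split of all calls depended on the scaling. With total-count scaling 1578 regions rose and 3789 fell, in place of 2506 and 913, and the median of all regions moved from -0.03 to -0.16. The Hox changes became 0.55, 0.40, 0.42 and 0.40, and all 4 were still called. They lay 0.71, 0.56, 0.58 and 0.56 above the median, a distance that a change of scaling leaves as it is. In the other comparisons total-count scaling gave 687 higher and 796 lower in place of 1139 and 386 (CD229+CD11c+ against basal), 1059 and 1697 in place of 1777 and 422 (CD229+CD11c- against CD229-CD11c-, median -0.14 in place of -0.03) and 60 and 50 in place of 104 and 40 (CD229+CD11c+ against CD229-CD11c-). For CD229+CD11c+ against CD229+CD11c-, total-count scaling gave 3 and 25, and offsets that remove each library's trend with basal enrichment and density gave 11 and 39 in place of 14 and 203.

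Between CD229+CD11c+ and basal microglia the 4 regions also rose. The log2 fold changes were 0.34 ± 0.09, 0.35 ± 0.07, 0.34 ± 0.06 and 0.31 ± 0.07 for Hoxa to Hoxd, with edgeR adjusted p-values of 0.032, 0.0029, 0.0023 and 0.0068. Of all regions 4.33% rose and 1.47% fell, and the groups did not overlap in 27.6% of regions and in the 4 Hox regions. Among the 100 regions of at least 100 kb, the Hox regions included, 29 rose and 2 fell. The Hoxa call was the weakest. Its edgeR adjusted p was 0.077 with total-count scaling, 0.17 without basal replicate 4, 0.11 without basal replicate 5, and 0.087, 0.082 and 0.093 without CD229+CD11c+ replicate 1, 2 or 3. The Hoxd call was lost without basal replicate 4 (0.054) and without CD229+CD11c+ replicate 1 (0.0502). Tagged libraries gave 0.41, 0.44, 0.41 and 0.41, and the untagged pair gave 0.23, 0.18, 0.19 and 0.12, all in the same direction.

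CD229-CD11c- microglia, which came from the same cuprizone-fed condition, showed no called change against basal microglia in any Hox region. The log2 differences were 0.08 ± 0.09, 0.11 ± 0.07, 0.09 ± 0.06 and 0.09 ± 0.07, each with an edgeR adjusted p of 0.98, and the groups overlapped in all 4 regions. By edgeR 0% of regions rose and 0% fell here, 1103 of 26326 had an unadjusted p under 0.05 and DESeq2 called 0, and the groups did not overlap in 8.6% of regions. Within the tagged libraries alone 787 of all regions were called higher and 129 lower. The Hoxb and Hoxd regions were among those called higher, at 0.19 (edgeR adjusted p 0.024) and 0.18 (0.032), while the untagged pair gave -0.02 and -0.07. The comparisons with basal microglia share the same basal libraries.

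Among the cuprizone subsets, CD229+CD11c- exceeded CD229-CD11c- microglia in all 4 Hox regions. The log2 fold changes were 0.61 ± 0.09, 0.42 ± 0.07, 0.47 ± 0.06 and 0.44 ± 0.07, with edgeR adjusted p-values of 1.7e-04, 1.8e-04, 3.4e-05 and 1.1e-04. Of all regions 6.75% rose and 1.6% fell, and the groups did not overlap in 22.9% of regions and in the 4 Hox regions. Among the 100 regions of at least 100 kb, the Hox regions included, 50 rose and 3 fell. The tagged libraries gave 0.63, 0.43, 0.46 and 0.43, and the untagged pair 0.56, 0.40, 0.48 and 0.46. With these trend offsets the log2 changes were 0.19, 0.13, 0.23 and 0.18, with edgeR adjusted p-values of 0.04, 0.28, 0.032 and 0.15, so that the calls at Hoxb and Hoxd were lost.

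CD229+CD11c+ microglia lay between the other subsets, and neither difference was called in the design without pairing. Against CD229-CD11c- microglia the log2 differences were 0.26 ± 0.09, 0.24 ± 0.07, 0.25 ± 0.06 and 0.22 ± 0.07 (edgeR adjusted p 0.25, 0.11, 0.07 and 0.15), with 0.395% of all regions called higher, 0.152% called lower and no overlap of the groups in 14.6%. A block on the replicate number is a pairing drawn from the data and not from the labels, and it partly follows the PE150 tag. With this block, 1554 of all regions were called higher and 471 lower. All 4 Hox regions were called higher there, at 0.27, 0.24, 0.25 and 0.22 (edgeR adjusted p 9.3e-10, 8.1e-09, 5.6e-10 and 3.6e-07). Against CD229+CD11c- microglia the log2 differences were -0.34 ± 0.09, -0.18 ± 0.07, -0.22 ± 0.06 and -0.22 ± 0.07 (edgeR adjusted p 0.078, 0.21, 0.087 and 0.11), with 0.0532% of all regions called higher, 0.771% called lower and no overlap in 19.2%. In both comparisons the groups did not overlap in any Hox region. In the tagged libraries alone all 4 regions were called in both comparisons, at 0.31, 0.26, 0.26 and 0.24 against CD229-CD11c- and -0.32, -0.18, -0.21 and -0.20 against CD229+CD11c-. Of all regions the tagged fits called 729 higher and 204 lower against CD229-CD11c-, and 256 higher and 1141 lower against CD229+CD11c-. The untagged pairs ran from 0.17 to 0.23 and from -0.39 to -0.20. In the authors' deposited table the 4 regions fell between CD229+CD11c- and CD229+CD11c+ microglia with adjusted p-values of 0.00049 (Hoxa), 0.024 (Hoxb), 0.0047 (Hoxc) and 0.0065 (Hoxd). With the trend offsets the same differences were -0.07, 0.0081, -0.06 and -0.04 (edgeR adjusted p 0.70, 0.98, 0.82 and 0.89), near 0 and of the other sign at Hoxb, and those against CD229-CD11c- microglia were 0.12, 0.14, 0.18 and 0.14, none called.

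**Figure D3:**
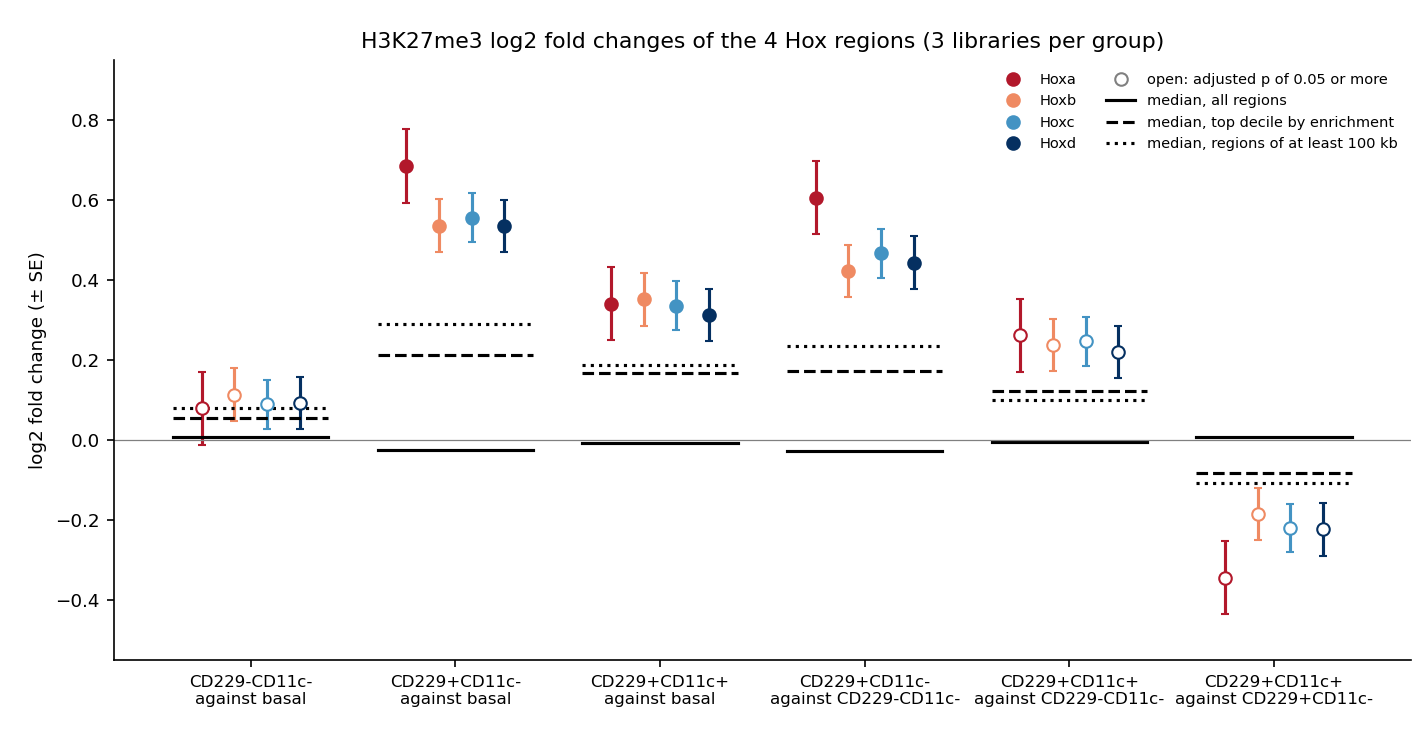
Log2 fold changes ± SE (edgeR, 3 libraries per group) of the 4 Hox regions in the 6 comparisons, filled where the adjusted p was under 0.05, with lines at the median of all regions, of the top decile in enrichment over input and of the regions of at least 100 kb. The Hox regions lie beyond all 3 medians except in CD229-CD11c- against basal, where Hoxa (0.08) sits at the median of the broad regions.

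Many other broad regions rose as well, and the Hox regions stood in the upper part of them. Between CD229+CD11c- and basal microglia the median log2 change was -0.03 over all regions, 0.21 over the top decile in enrichment over input, and 0.29 over the 100 regions of at least 100 kb, of which 58 rose and 4 fell. The Hox regions ranked 4 (Hoxa), 9 (Hoxc), 12 (Hoxb) and 13 (Hoxd) among those 100. Another 7 of them were at least as enriched as the Hoxc region, a set chosen after the values were seen, and 6 of these 7 rose, with log2 changes of 0.25 to 0.57 and a median of 0.52. Their range holds 3 of the 4 Hox values, and Hoxa, the most enriched broad region, lay above it. With the trend offsets, the Hox changes were 0.34, 0.32, 0.40 and 0.35 for Hoxa to Hoxd, and all 4 were called. The input libraries were not analysed here, and the part of each library's overall enrichment in these changes was not tested.

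**Figure D4:**
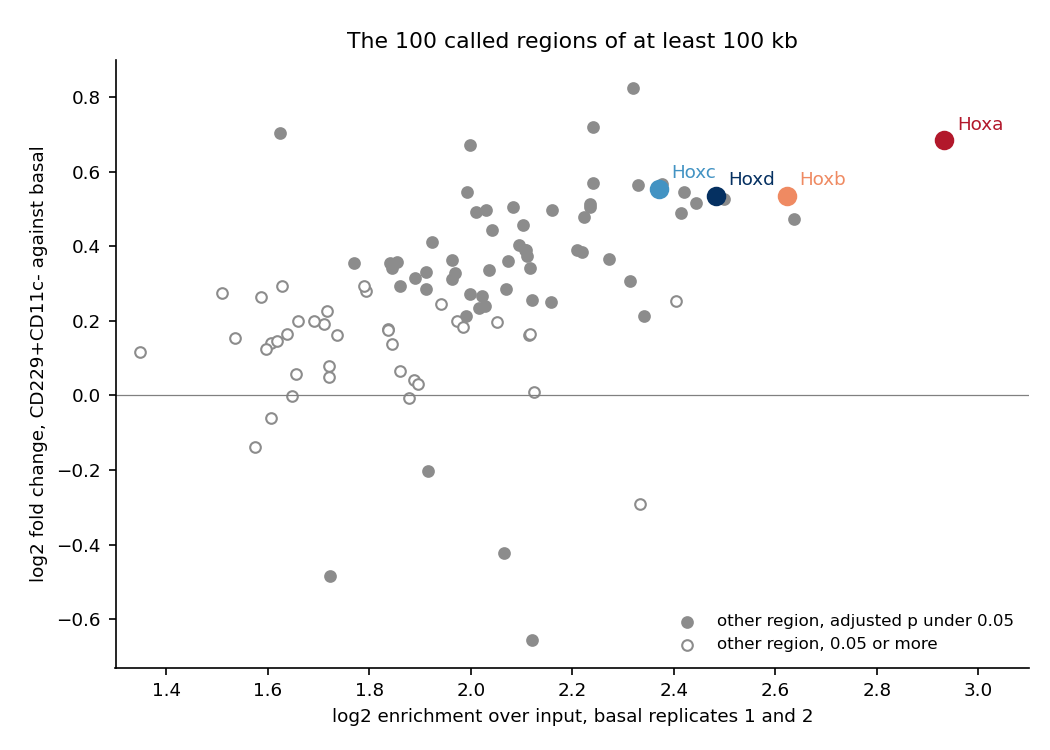
The 100 regions of at least 100 kb by log2 enrichment over input in basal replicates 1 and 2 (horizontal) and log2 fold change between CD229+CD11c- and basal microglia (vertical), with the Hox regions in colour and the others filled where the edgeR adjusted p was under 0.05. The Hox regions lie at 0.54 to 0.69, at the right of the plot, among other highly enriched regions at 0.25 to 0.57.

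Of the 70 neighbouring regions, 8 rose and 3 fell between CD229+CD11c- and basal microglia, where 9.52% of all regions rose and 3.47% fell, and their median log2 change was 0.06. With total-count scaling 6 rose and 12 fell, and without basal replicate 4, 6 were called in place of 11. Near Hoxd none of 21 rose and 2 fell (median -0.08), near Hoxa 2 of 25 rose and 1 fell (0.12), near Hoxb 3 of 18 rose (0.12), and near Hoxc 3 of 6 rose (0.28). In CD229+CD11c- against CD229-CD11c- microglia 8 of the 70 rose and none fell, beside 6.75% and 1.6% of all regions, or 4 and 4 with total-count scaling. With the replicate number as a block 14 were called, beside 4595 of all regions. Without the block the number called was 5 without CD229-CD11c- replicate 2 and 13 without CD229-CD11c- replicate 3.

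The neighbours with the smallest p were mostly dense regions themselves. The Evx1 region at chr6:52303289-52334019, 30.7 kb long, had 198 ± 24.6 CPM in basal and 292 ± 8.46 in CD229+CD11c- microglia (log2 change 0.56 ± 0.08, edgeR adjusted p 4.4e-05). It was both the neighbour with the smallest p and the densest one of Hoxa. A region assigned to Igf2bp1, an RNA-binding protein gene, 87.1 kb from the Hoxb region, rose by 0.48 ± 0.09 (4.8e-04), and an intronic one assigned to B4galnt2, a glycosyltransferase gene, rose by 0.39 ± 0.08 (0.0024). Beyond Hoxc, a region assigned to Smug1, a DNA repair gene, rose by 0.50 ± 0.07 (5.7e-05). At 115.2 kb from the Hoxd domain, a region assigned to Mtx2, a mitochondrial import gene, went the other way, from 48.8 ± 2.14 to 38.8 ± 1.68 CPM (-0.33 ± 0.09, 0.018). The densest Hoxd neighbour, 44.0 kb assigned to Lnpk and 1.6 kb from the domain, was at 171 ± 5.33 and 159 ± 16.3 CPM and was not called (edgeR adjusted p 0.41).

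Set against their own surroundings within each library, which needs no scaling between libraries, the Hoxa, Hoxb and Hoxd domains differed between the groups. The neighbours of these 3 were less enriched over input (median log2 1.44, 1.56 and 1.48) than the domains (2.93, 2.62 and 2.48). The part of each library's overall enrichment in the ratio was not tested. A change in the neighbours also moves it, and those of Hoxd had a median log2 change of -0.08 between CD229+CD11c- and basal microglia. The log2 ratio of Hox density to the density of the local background regions was 0.86 ± 0.15 in basal and 0.98 ± 0.04 in CD229-CD11c- microglia, with 1.54 ± 0.02 for CD229+CD11c- and 1.20 ± 0.02 for CD229+CD11c+, in the Hoxd cluster (mean ± SD, n = 3). For Hoxa it was 1.16 ± 0.13, 1.26 ± 0.13, 1.67 ± 0.09 and 1.44 ± 0.07, and for Hoxb 0.62 ± 0.08, 0.72 ± 0.07, 0.99 ± 0.04 and 0.88 ± 0.04. All CD229+CD11c- libraries exceeded all others in these 3 clusters. An exact permutation test over the 4 groups gave p = 0.0021 (Hoxa), 0.00019 (Hoxb) and 0.00026 (Hoxd), or 0.0028, 0.00052 and 0.00052 adjusted over the 4 clusters.

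For the Hoxc domain, which has 6 neighbours, no difference over the 4 groups was called. Its log2 ratio was 0.21 ± 0.02, 0.26 ± 0.10, 0.39 ± 0.09 and 0.41 ± 0.09 in the same order, with an exact permutation p of 0.054 (0.054 adjusted). The adjusted p was 0.041, 0.036 and 0.032 without replicate 3 of CD229-CD11c-, CD229+CD11c- or CD229+CD11c+, the untagged libraries. A further test was added after the data were seen, and it rests on the pairing drawn from these data. Over the 3 cuprizone subsets alone, with groups permuted within each replicate number, the exact permutation p was 0.028 in each of the 4 clusters, the smallest that 216 permutations can give (0.028 adjusted). The Hoxc ratio was then higher in CD229+CD11c- than in CD229-CD11c- microglia in 3 of 3 pairs, by 0.13, 0.10 and 0.15. Between 2 groups of 3 libraries the smallest exact permutation p is 0.1, and 16 of the 24 pairwise tests reached it (0.15 adjusted over the 24). Between CD229+CD11c- and basal microglia the difference in Hoxd was 0.77 in the tagged libraries and 0.49 in the untagged pair, in Hoxa 0.53 and 0.46, in Hoxb 0.44 and 0.25, and in Hoxc 0.24 and 0.06.

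**Figure D5:**
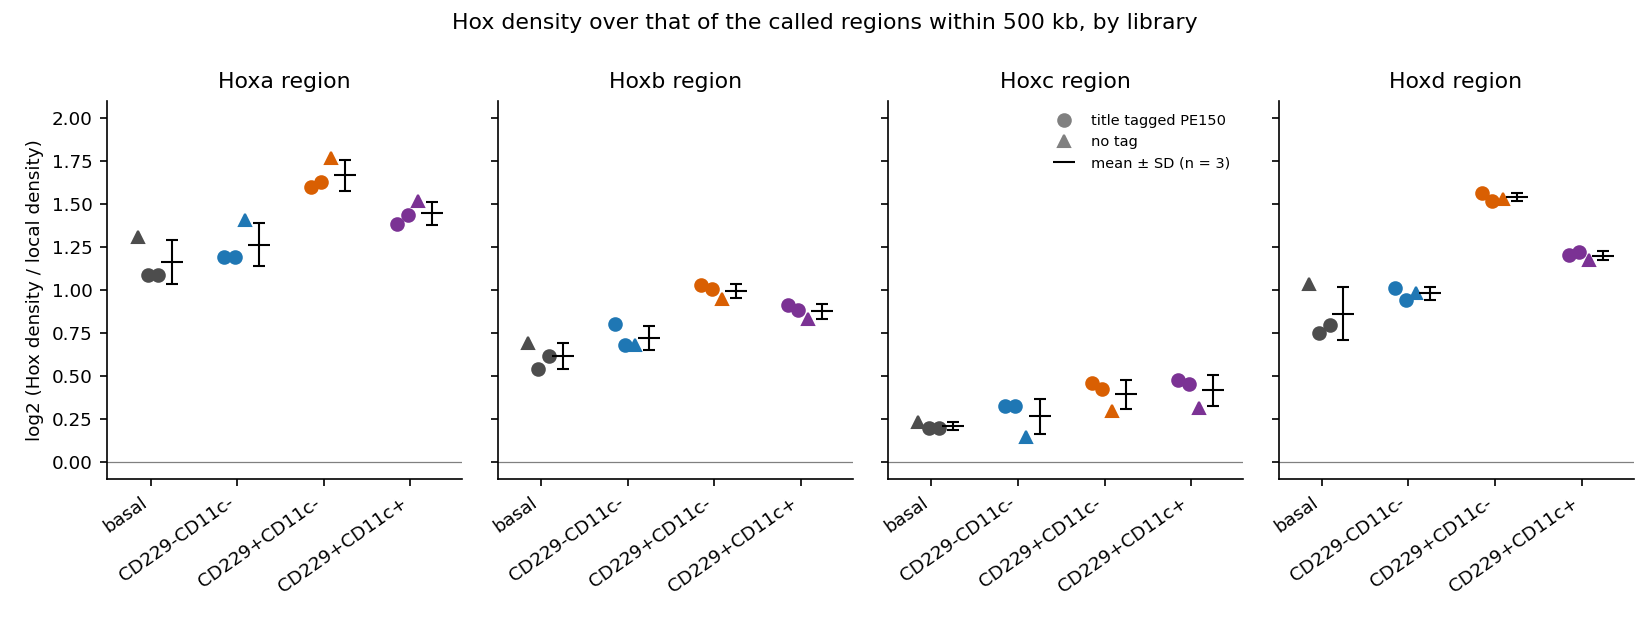
Log2 ratio of the density of each Hox region to that of the called regions within 500 kb, in each library, with the mean ± SD of 3 libraries, circles for libraries tagged PE150 in their titles and triangles for the others. The mean for Hoxd is 0.86 in basal and 1.54 in CD229+CD11c- microglia, and the Hoxc means lie between 0.21 and 0.41.

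The 4 domains together held 0.665 ± 0.0511% of all region tags in basal microglia (SD, n = 3), on 0.374% of the length of the called regions. The share was 0.698 ± 0.0249% for CD229-CD11c-, 0.902 ± 0.0168% for CD229+CD11c- and 0.800 ± 0.00286% for CD229+CD11c+ libraries. Each cluster's part of these Hox tags showed no called difference over the 4 groups. Hoxa held 20.7, 20.6, 22.4 and 20.9% in the 4 groups, Hoxb 25.5, 25.9, 24.8 and 25.8%, Hoxc 35.5, 35.3, 35.0 and 35.4%, and Hoxd 18.2, 18.2, 17.8 and 17.9%. Exact permutation tests over the 4 groups gave p = 0.43, 0.062, 0.83 and 0.46 for Hoxa to Hoxd (0.61, 0.25, 0.83 and 0.61 adjusted). The spread of the group means was 1.86 percentage points for Hoxa, 1.02 for Hoxb, 0.512 for Hoxc and 0.491 for Hoxd. Within replicate numbers of the cuprizone subsets, the exact permutation p was 0.056, 0.11, 0.25 and 0.028 for Hoxa to Hoxd (0.11, 0.15, 0.25 and 0.11 adjusted). From CD229-CD11c- to CD229+CD11c- microglia the Hoxa share differed by 1.99, 2.20 and 1.40 percentage points in the 3 pairs, and the Hoxb share by -1.11, -0.733 and -1.23.

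Genes that act with the Hox proteins or control the Hox clusters were also covered in part. Of 41 such genes, 28 had a called region outside the Hox domains, 82 regions in all, and Evx2 lies in the Hoxd domain. In CD229+CD11c- against basal microglia 20 of the 82 rose and 2 fell, beside 9.52% and 3.47% of all regions, with a median of 0.10, and with total-count scaling 16 rose and 7 fell. Among them 5 of 31 regions of Hox partner homeodomain genes rose and 1 fell, 7 of 28 of upstream regulators rose, 3 of 5 of ParaHox and flanking homeobox genes rose, and 6 of 19 of chromatin regulators rose and 1 fell (a region of genes with different roles counts under each). The region over Evx1, described above as a neighbour of Hoxa, is also on this list. CD229+CD11c- against CD229-CD11c- microglia gave 17 that rose and 1 that fell, beside 6.75% and 1.6% of all regions (15 and 5 with total-count scaling). Between CD229+CD11c+ and basal microglia 8 rose and 1 fell, beside 4.33% and 1.47% of all regions, and there the number called was 3 without basal replicate 4, 5 without CD229+CD11c+ replicate 1 or 2, and 16 without CD229-CD11c- replicate 3. For CD229+CD11c+ against CD229-CD11c- microglia 2 were called higher, beside 0.395% of all regions. With the replicate number as a block 15 were called, beside 2025 of all regions.

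Among Hox partners, a region overlapping Pbx4, which encodes a DNA-binding partner of Hox proteins, went from 111 ± 13.7 CPM in basal to 206 ± 13.3 in CD229+CD11c- microglia (log2 change 0.89 ± 0.08, edgeR adjusted p 2.9e-07). At Meis2, another partner gene, 2 regions rose, by 0.58 ± 0.08 and 0.50 ± 0.07 (2.4e-05 and 5.8e-05). The ParaHox genes Cdx2 and Pdx1, which pattern gut and pancreas, share a region of 74.6 kb that went from 376 ± 25.1 to 600 ± 23.8 CPM (0.67 ± 0.07, 1.3e-06). That of Gsx2, a ParaHox gene of the forebrain, rose by 0.62 ± 0.08 (7.8e-06). The log2 changes of these 5 regions, from 0.50 to 0.89, stand beside 0.54 to 0.69 for the Hox domains.

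Upstream, the region over Cyp26a1 and Cyp26c1, which encode enzymes that break down retinoic acid, rose by 0.49 ± 0.07 (edgeR adjusted p 4.7e-05), and that over Rara, a retinoic acid receptor gene, by 0.50 ± 0.08 (1.3e-04). Retinoic acid is known to switch on Hox genes in the embryo. Among genes of Polycomb repressive complex 1, a region of 33.4 kb that overlaps Cbx8 went from 274 ± 38.8 to 461 ± 44.8 CPM (0.75 ± 0.11, 1.0e-04). The centre of that region is annotated as intergenic. A short region of 3.0 kb in the first intron of Bmi1 changed the most on the log2 scale of the 10 named here, from 8.99 ± 1.73 to 25.6 ± 5.80 CPM (1.51 ± 0.20, 2.9e-05). Levels of the RNA or protein of these genes were not measured here.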

How the data were processed

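H3K27me3 ChIP-seq tag counts of 12 libraries of sorted mouse microglia, 3 per group, were compared over 26326 regions. Per the file headers, the authors called these regions in mm10 from basal replicates 1 and 2 and their inputs, with the replicate peak caller of HOMER. The submitters' processing notes also name Bowtie2 2.3.4.1, fastp 0.20.0, STAR 2.7.0f and DESeq2, without their roles. The raw tag count per region and library was deposited and was used for all tests. The deposited peak score and region length, the authors' log2 variance-stabilised values and log2 fold over input, and their p-value come from the region table. The authors' normalized signal was not used, and their deposited log2 fold changes with adjusted p-values are printed only where the authors' table is named. Region coordinates are those of the files.

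Counts were fitted with edgeR 4.0.16 in R 4.3.3 (quasi-likelihood F-test, TMM scaling, all 4 groups in 1 model, Benjamini-Hochberg adjustment over 26326 regions, called under 0.05). The low-count filter removed 0 regions. Levels are CPM, per kb of region where stated. Ratios and shares were compared between groups with two-sided exact permutation tests over samples in Python 3.11.15 (scipy 1.17.1), whose smallest p is 0.1 for 3 against 3 libraries and 6.5e-05 for the 4 groups. The fit was tested on simulated data. Regions were tied to listed genes by overlap or by the table's own assignment. All Hox regions are named. For each cluster the neighbour with the smallest p between CD229+CD11c- and basal microglia and the densest neighbour are named, and of the partner and regulator list the 10 called regions with the smallest p. The members and lists were chosen with earlier results of these data known. Sequences are from RefSeq (GRCm38.p6).

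No replicates were copies of each other (chi-square per degree of freedom 1.68 to 7.60). Same-numbered libraries of the cuprizone subsets deviated together, with correlations of 0.13 to 0.46 between CD229-CD11c- and CD229+CD11c-, 0.13 to 0.42 between CD229-CD11c- and CD229+CD11c+, and 0.083 to 0.33 between CD229+CD11c- and CD229+CD11c+. The best match of a library in another subset was its own number in 6 of 9 cases, all of them replicates 1 and 3. Replicate 2 matched replicate 1 of the other subset better than its own number, at 0.25 against 0.13, 0.18 against 0.13 and 0.096 against 0.083. Replicate 3 is the untagged library of each subset, so a shared number and a shared tag cannot be told apart there. Tagged libraries with different numbers correlated at 0.093 to 0.25, and tagged with untagged ones (replicate 3) at -0.37 to -0.14, so the pattern also follows the PE150 tag. The main fits used the group alone, without pairing. An alternative fit of the 3 cuprizone subsets took the replicate number as a block, a pairing drawn from the data and not from the labels. Alternatives were total-count scaling, DESeq2 1.42.0, offsets from a loess trend (span 0.3) on basal enrichment and density, at least 50 tags in every library or no filter, only the groups compared, the PE150 tag as a covariate, tagged libraries only, other extents of the local background and leaving out each library. A permutation within replicate numbers was added after seeing the data.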

Additional observations from a re-analysis of the deposited data

How the results depend on the processing

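Without each library in turn, the number of Hox regions called (of 4) between CD229+CD11c+ and basal microglia ran from 2 to 4, with 2 without basal replicate 4 or CD229+CD11c+ replicate 1. It ran from 0 to 1 between CD229+CD11c+ and CD229-CD11c- microglia and from 0 to 3 between CD229+CD11c+ and CD229+CD11c- (2 without basal replicate 3, 3 without CD229-CD11c- replicate 3), where the full fit called 0. With a covariate for the PE150 tag, in tagged libraries alone, or with the replicate block, 4 were called in both of these comparisons. Of all regions these fits called 1638, 933 and 2025 in the first and 1920, 1397 and 2199 in the second. Of the Hox regions DESeq2 called 1 and 3, and a fit of only the 2 groups called 4 in the second. Between CD229-CD11c- and basal microglia 2 Hox regions were called in tagged libraries alone, beside 916 of all regions. With loess offsets 2 were called between CD229+CD11c- and CD229-CD11c-, beside 1279 of all regions. The replicate block left 4 Hox calls there. The fits without a filter or with at least 50 tags changed no Hox call.

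Of the local background regions, the number called between CD229+CD11c- and basal microglia (11) was 18 with total-count scaling, 19 with the tag covariate, 17 in tagged libraries, 5 within 250 kb, 26 within 1 Mb and 6 to 15 without each library. Against basal, CD229+CD11c+ gave 2, then 0, 7 and 10 in the same order, 4 in a fit of only the 2 groups, 1 within 250 kb, 5 within 1 Mb and 0 to 4 without each library. CD229+CD11c- against CD229-CD11c- gave 8, 13 with the covariate, 14 with the replicate block, 1 with loess offsets, 4 within 250 kb, 18 within 1 Mb and 5 to 13 without each library. CD229+CD11c+ against CD229-CD11c- gave 0, then 3 with the covariate, 2 in tagged libraries and 4 with the block. Against CD229+CD11c- it gave 0, then 9, 6 and 9, 4 with only the 2 groups, 1 with DESeq2, 1 within 1 Mb and 0 to 5 without each library.

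Of the 82 partner and regulator regions, tagged libraries gave 2 in place of 0 for CD229-CD11c- against basal. For CD229+CD11c+ against basal (9) the covariate gave 22, tagged libraries 24, only the 2 groups 15, and leaving out a library 3 to 16. For CD229+CD11c- against CD229-CD11c- (18) loess offsets gave 11. For CD229+CD11c+ against CD229-CD11c- (2) the covariate gave 13, tagged libraries 8, the replicate block 15, loess offsets 1, total-count scaling and only the 2 groups 0, and leaving out a library 0 to 2. For CD229+CD11c+ against CD229+CD11c- (1) the covariate gave 17, tagged libraries 14, only the 2 groups 10, the block 20, DESeq2 8, total-count scaling 0, and leaving out a library 0 to 11.

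Over all regions, calls ran from 2084 to 5828 (3419 in the full fit, CD229+CD11c- against basal), 442 to 4538 (1525, CD229+CD11c+ against basal), 1279 to 4595 (2199, CD229+CD11c- against CD229-CD11c-), 44 to 2025 (144, CD229+CD11c+ against CD229-CD11c-), 9 to 2199 (217, CD229+CD11c+ against CD229+CD11c-) and 0 to 916 (0, CD229-CD11c- against basal). The lowest counts came without basal replicate 4 (against basal), with loess offsets, and without CD229+CD11c+ replicate 1 or 2. The highest came with the tag covariate (against basal), the replicate block, or tagged libraries.

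The spread of the Hoxc local ratio over the 4 groups (0.21) was 0.30 within 1 Mb and 0.34 against the median neighbour, both past the threshold, 0.15 in the cuprizone subsets with the replicate block (also past it), and 0.18 to 0.26 without each library. The enrichment ranks of Hoxa to Hoxd, 211, 573, 1182 and 863, became 4, 3, 2 and 8 by the authors' peak score and 9, 162, 311 and 190 by density. Between these settings, signs changed only in differences that were uncalled in the main setting, though some of the other fits called the Hoxb difference given below. The Hoxa change in CD229-CD11c- against basal ran from -0.0188 to 0.19 without each library, the Hoxb change in CD229+CD11c+ against CD229+CD11c- was 0.0081 with loess offsets, and the Hoxc local ratio there (0.02) was -0.0737 within 1 Mb, -0.0024 against the median neighbour and -0.0256 to 0.0744 without each library. The cause of these shifts was not tested. No block was possible against basal microglia, which share only replicate 3 with the subsets, and each cluster has 1 region, so the alternative of its broadest region was not run. Each Hox region held at least 9651 tags in each library, while short regions held far fewer.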
